A study of Homo sapiens with 4 samples.

Results

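The replication-dependent histone genes were followed in U937, a human cell line with monocyte features that the labels call a lymphoma. Members were all genes of the array annotation whose older symbol starts with HIST1H, HIST2H or HIST3H, or whose current symbol is H1-1 to H1-6 or starts with H2AC, H2BC, H3C or H4C. This rule found 64 genes, on 71 of the array's 54675 probe sets, and used no measured value. Of the 64, 45 were among the 19775 genes with a probe set of their symbol alone, and 19 were annotated only on probe sets shared with other members. Each of the 4 groups had 1 array. They were the combination (cells given 0.05% Sonazoid, an ultrasound contrast agent of gas microbubbles, plus 1 min of ultrasound at 0.3 W/cm2), ultrasound only (that exposure without the agent), Sonazoid only (0.05%) and control, which was not treated. The 3 treated groups were kept for 3 h at 37°C after treatment. No such incubation is listed for control, so whether it was kept alike is not known. With 1 array a group there was no replicate and no test was made, so every difference below is between single arrays.

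Replication-dependent histone genes supply the proteins that package newly copied DNA. H3 with H4 and H2A with H2B form the nucleosome core, and the linker histone H1 binds where the DNA enters and leaves it. The genes lie in clusters, most have no introns, and their mRNAs are made chiefly in S phase. These mRNAs normally end in a stem-loop bound by SLBP in place of a poly(A) tail, although some members also give polyadenylated forms. The labelling kit used here amplifies from the 3' end and is primed on poly(A), so how a probe set weighs stem-loop and polyadenylated forms is not known. Of the 64 genes, 56 lie on chromosome 6, 6 on chromosome 1, 1 on chromosome 12 and 1 on chromosome 21.

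Promoters are shown for the core histone gene with the brightest specific probe set in each class, as an example of each class. The sequences are those of RefSeq, build GRCh38.p14, from 250 bases before the gene start to 50 after it, written 5′ to 3′ along the gene. Capitals mark the CCAAT box (CCAAT), the TATA box (TATAAA), the octamer of H2B promoters (ATTTGCAT) and the E2F site (TTTGGCGC or TTTCGCGC), each searched on both strands. Matches can touch or overlap, as a TATA box on each strand does near the start of the H2BC12 window.
H2AC25 (chr1:228457824-228458123, minus strand): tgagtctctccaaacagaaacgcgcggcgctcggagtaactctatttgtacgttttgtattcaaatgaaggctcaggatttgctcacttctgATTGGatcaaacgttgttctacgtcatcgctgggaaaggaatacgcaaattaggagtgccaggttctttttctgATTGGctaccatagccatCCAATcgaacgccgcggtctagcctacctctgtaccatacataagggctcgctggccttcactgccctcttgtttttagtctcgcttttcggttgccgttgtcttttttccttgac
H2BC12 (chr6:27146809-27147108, minus strand): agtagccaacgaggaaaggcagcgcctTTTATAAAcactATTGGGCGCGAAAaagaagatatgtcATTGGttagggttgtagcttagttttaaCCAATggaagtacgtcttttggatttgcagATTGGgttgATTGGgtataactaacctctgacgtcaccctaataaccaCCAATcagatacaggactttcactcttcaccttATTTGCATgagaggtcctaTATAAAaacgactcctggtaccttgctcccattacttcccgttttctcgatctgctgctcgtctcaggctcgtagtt
H3C3 (chr6:26045134-26045433, plus strand): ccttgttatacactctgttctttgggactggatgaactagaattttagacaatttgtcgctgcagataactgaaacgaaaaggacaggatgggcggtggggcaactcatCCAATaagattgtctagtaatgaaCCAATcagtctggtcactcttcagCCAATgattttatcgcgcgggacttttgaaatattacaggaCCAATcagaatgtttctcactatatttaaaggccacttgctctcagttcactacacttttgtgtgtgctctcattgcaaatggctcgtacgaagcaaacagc
H4C5 (chr6:26204360-26204659, plus strand): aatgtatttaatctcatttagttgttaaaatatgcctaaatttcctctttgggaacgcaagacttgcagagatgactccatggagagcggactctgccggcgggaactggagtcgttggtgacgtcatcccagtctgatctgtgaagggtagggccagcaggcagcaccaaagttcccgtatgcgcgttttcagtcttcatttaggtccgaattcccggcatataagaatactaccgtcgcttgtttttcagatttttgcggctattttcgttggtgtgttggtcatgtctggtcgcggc

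H2BC12 held 6 CCAAT boxes, 3 TATA boxes, 1 octamer and 1 E2F site. H2AC25 held 3 CCAAT boxes and H3C3 held 4, and no other motif of the 4 kinds was found in either. None of these letters occurred in the window of H4C5. A promoter was found for 56 of the 64 genes, and the windows shown do not stand for their whole class. CCAAT occurred in all 6 H1, 13 H2A, 16 H2B and 8 H3 promoters and in 3 of 13 H4 promoters, against 35.7% of 27305 promoters, 1 per gene. The octamer occurred in 13 of 16 H2B and 8 of 13 H2A promoters, in 1 of 8 H3 promoters and in no H1 or H4 promoter, against 1.8% of all. TATAAA was spread over the classes, in 3 of 6 H1, 9 of 13 H2A, 12 of 16 H2B, 5 of 8 H3 and 7 of 13 H4 promoters, against 12.0% of all. The E2F letters were in 19.6% of the histone promoters and 1.18% of all, with 5 of 13 H2A, 5 of 16 H2B, 1 of 8 H3 and no H1 or H4 promoter among them. A match is a run of letters and says nothing of a factor bound there.

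Array signals were brought to a common trimmed mean, and log2 was taken after any lower value had been raised to a floor of 23.8, the median scaled signal over all probe sets and arrays. A probe set counted as measured when its mean over the 4 arrays was above the floor, as 39 of the 71 histone probe sets did. Probe sets with several gene symbols, or whose name ends in _x_at, _s_at or _a_at, may bind more than 1 member and are called shared. The others are called specific. Of 34 shared probe sets 23 were measured, and of 37 specific ones 16. The other 32 included 23 that were below the floor on all 4 arrays, and the 9 that crossed it on at least 1 array reached at most 41.1. The 18 genes with no measured probe set of their own were H1-1, H1-5, H2AC5P, H2AC8, H2AC15, H2BC1, H2BC4, H2BC11, H2BC13, H2BC15, H2BC21, H3C1, H3C6, H3C11, H4C1, H4C7, H4C10P and H4C13. Among these, H2AC5P and H4C10P are pseudogenes and H2BC1 encodes a testis H2B. Signals of different probe sets are not set against each other as levels.

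The 4 arrays had median deposited signals of 26.4 for the combination, 22.6 for ultrasound only, 23.8 for Sonazoid only and 22.6 for control. Without scaling, the median of all measured probe sets lay 0.17 (log2) above control in the combination, so differences are best read against that of all probe sets, which scaling put at 0.00. The ratio of 3' to 5' signal was between 1.16 and 1.2 for ACTB and between 0.946 and 1.01 for GAPDH. Of 8 markers of the monocytic line with a probe set, 7 were above the floor on all 4 arrays (LYZ, CD4, SPI1, CEBPA, PRTN3, ELANE and CTSG) and MPO was above it on 1. Of 9 T and NK, B and epithelial markers, 6 were below the floor on every array and none was above it on all 4. COL1A1, of fibroblasts, and PECAM1, which monocytes also carry, were above it on all 4.

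Across the histone probe sets the combination array stood highest most often, though on specific ones alone it tied with ultrasound only. The median difference of the 39 measured probe sets was 0.31 (log2) for the combination against control, 0.12 for ultrasound only against control and 0.03 for Sonazoid only against control, where all 26486 measured probe sets had 0.00 in each. These 3 comparisons share the control array. At 1.5-fold or more, 11 of the 39 were higher and 1 lower in the combination than in control, against 7.03% and 5.5% of all measured probe sets. With ultrasound only 5 were higher and 3 lower (7.28% and 6.36% of all), and with Sonazoid only 2 were higher and 3 lower (4.55% and 5.18% of all). At 2-fold or more the combination had 6 higher (1.65% of all) and none lower (1.11%), ultrasound only had 2 higher (1.82%) and 1 lower (1.31%), and Sonazoid only 1 higher (0.838%) and 1 lower (1.01%). The combination was the highest of the 4 arrays for 20 of the 39, against 24.2% of all, ultrasound only for 8 (28.4%), Sonazoid only for 5 (24.3%) and control for 6 (23.2%), counts chosen after the values were seen. Split by kind, the combination was highest for 15 of the 23 shared probe sets, against 22.9% of all measured shared ones. On the 16 specific ones the combination and ultrasound only were each highest for 5. The share of cells in S phase and the histone mRNA per cell cannot be told apart in bulk RNA.

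**Figure D1:**
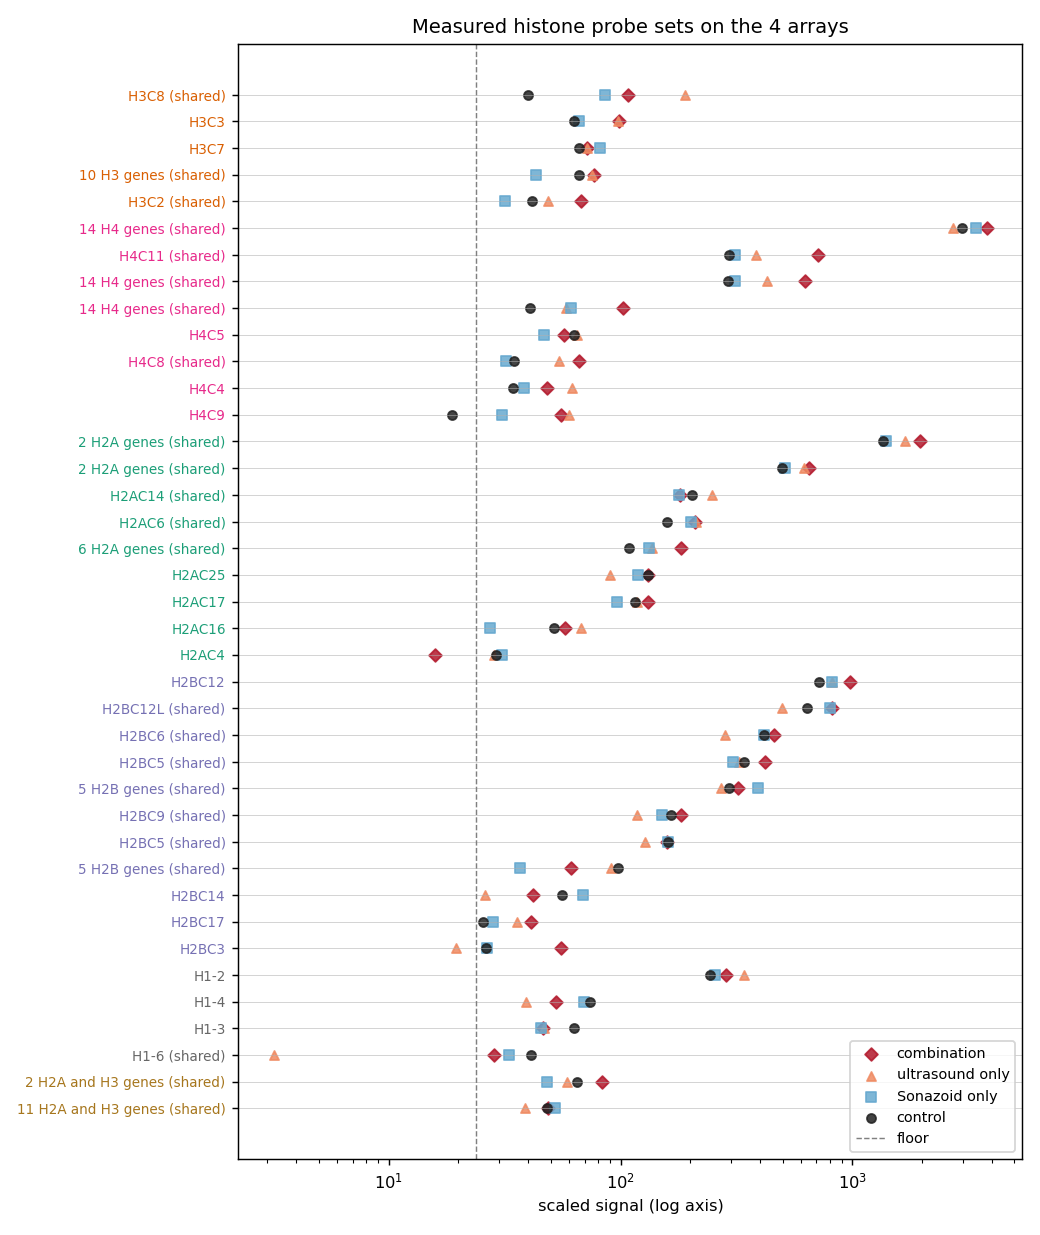
Scaled signal (log axis) of the 39 measured histone probe sets, 1 row each, grouped and coloured by class, with 1 point for each of the 4 arrays and the floor of 23.8 as a dashed line. The combination is the rightmost point in 20 of the 39 rows.

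H4, the partner of H3 in the central tetramer, had the highest class median in the combination against control. The 8 measured H4 probe sets had a median of 1.02 (log2) for the combination against control, 0.54 for ultrasound only and 0.13 for Sonazoid only. At 1.5-fold, 5 of the 8 were higher in the combination than in control (7.03% of all). H4C11, on a shared probe set, had 714 in the combination, 383 with ultrasound only, 312 with Sonazoid only and 293 in control, 2.44-fold in the combination over control. A shared probe set annotated to 14 H4 genes had 625 in the combination, 427 with ultrasound only, 311 with Sonazoid only and 291 in control (2.15-fold). In both, the combination was highest, ultrasound only came next, and Sonazoid only lay within 1.5-fold of control. H4 genes encode nearly or fully the same protein from similar sequences, so these probe sets overlap in what they can bind and are not independent.

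Other H4 probe sets were less alike. A second one of the 14 genes had 102 in the combination, 57.9 with ultrasound only, 60.9 with Sonazoid only and 40.5 in control, 2.52-fold in the combination over control. The third and brightest had 3802 in the combination, 2711 with ultrasound only, 3419 with Sonazoid only and 2983 in control, a 1.27-fold difference with ultrasound only as the lowest array. H4C8, on a shared probe set, had 66.3 in the combination, 54.5 with ultrasound only, 32.2 with Sonazoid only and 34.6 in control (1.92-fold). Its specific probe set was below the floor on all 4 arrays, with 20.2 in the combination, 8.71 with ultrasound only, 13.5 with Sonazoid only and 12.8 in control, so the difference is not shown for H4C8 itself. Of 5 probe sets annotated to the same 14 H4 genes, the 3 measured ones ran from 1.27-fold to 2.52-fold in the combination over control. Of the unmeasured ones, 1 was below the floor on all 4 arrays. The other had 21.9 in the combination, 5.61 with ultrasound only, 33.4 with Sonazoid only and 12.4 in control, above the floor with Sonazoid only alone.

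The specific H4 probe sets were dim, and ultrasound only was the highest array on each. H4C9 had 55.3 in the combination, 60.0 with ultrasound only, 30.9 with Sonazoid only and 18.8, below the floor, in control, so it was at least 2.32-fold higher in the combination and at least 2.52-fold higher with ultrasound only. H4C4 had 48.4 in the combination, 62.0 with ultrasound only, 38.2 with Sonazoid only and 34.3 in control, which is 1.41-fold for the combination and 1.81-fold for ultrasound only. H4C5 had 57.1 in the combination, 64.7 with ultrasound only, 46.9 with Sonazoid only and 63.1 in control, within 1.5-fold of control on each array. The combination minus ultrasound only was between 0.28 and 0.90 (log2) on the 5 shared H4 probe sets and between -0.36 and -0.12 on the 3 specific ones. With the values as deposited H4C5 and H4C9 had 0.04 and 0.1 there in place of -0.18 and -0.12.

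H3, the histone whose tail carries much-studied methylation and acetylation marks, was also above control on both arrays with ultrasound. The 5 measured H3 probe sets were all above 0 in the combination against control (median 0.64, log2) and in ultrasound only against control (median 0.23). Of all 26486 measured probe sets, 12921 and 13084 were above 0 there. With Sonazoid only the H3 median was 0.07. The 3 shared H3 probe sets can bind related H3 mRNAs and are not independent. H3C3, on a specific probe set, had 98.5 in the combination, 98.0 with ultrasound only, 66.3 with Sonazoid only and 63.2 in control. It was 1.56-fold higher in the combination and 1.55-fold higher with ultrasound only, so the arrays with ultrasound stood together above those without. H3C8, on a shared probe set, had 108 in the combination, 190 with ultrasound only, 85.4 with Sonazoid only and 39.7 in control. Its ultrasound only value was 4.78-fold control, the largest difference of any measured histone probe set, and all 3 treated arrays were above control. H3C2, also shared, had 67.3 in the combination, 48.8 with ultrasound only, 31.7 with Sonazoid only and 41.7 in control (1.61-fold in the combination). The other H3 probe sets, 1 specific and 1 shared by 10 symbols, lay between 0.12 and 0.21 in the combination and with ultrasound only against control. With Sonazoid only the specific one was at 0.31. The shared one was at -0.63 there (43.0 against 66.4 in control), 1.54-fold lower.

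**Figure D2:**
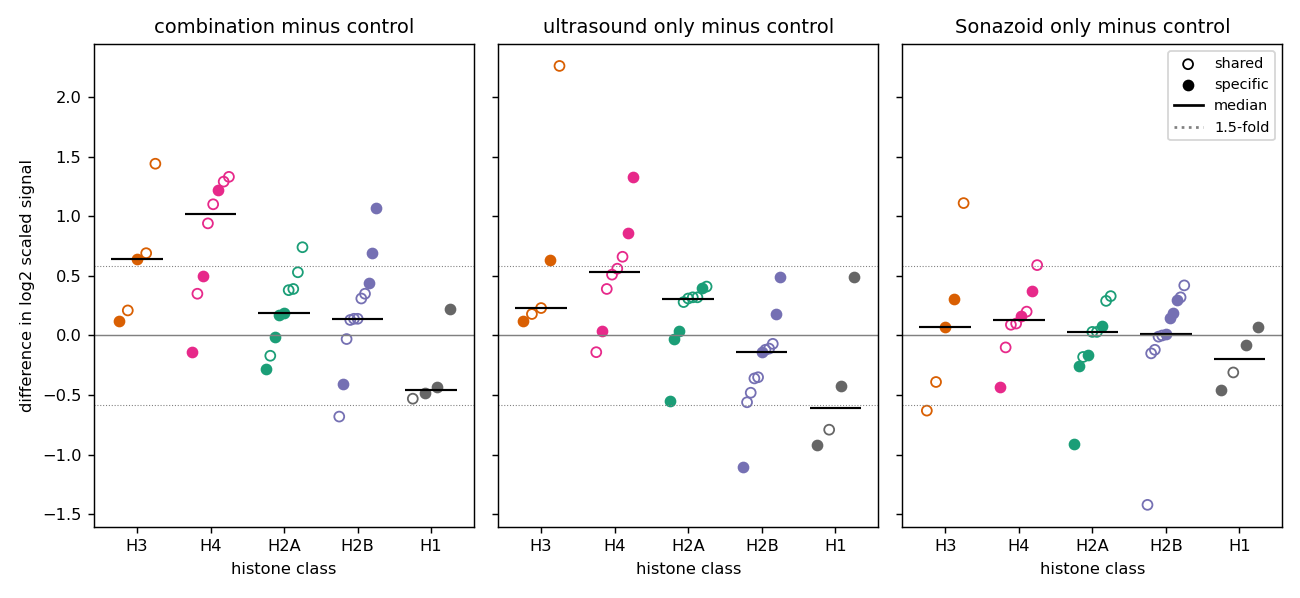
Difference from control in log2 scaled signal for the measured probe sets of each histone class, in the combination, ultrasound only and Sonazoid only panels, with open circles for shared and filled circles for specific probe sets, bars for medians and dotted lines at 1.5-fold. Each bar takes shared and specific probe sets together. H4 has the highest median in the combination panel (1.02) and H1 the lowest (-0.46), and the H2B median is below 0 with ultrasound only (-0.14).

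H2A pairs with H2B on the faces of the nucleosome. The 9 measured H2A probe sets had medians of 0.19 (log2) in the combination, 0.31 with ultrasound only and 0.03 with Sonazoid only, each against control. With ultrasound only the median was 0.32 on the 5 shared H2A probe sets and 0.00 on the 4 specific ones. The brightest, shared by 2 H2A symbols, had 1964 in the combination, 1694 with ultrasound only, 1391 with Sonazoid only and 1358 in control (1.45-fold in the combination). Another of the same 2 symbols had 648 in the combination, 621 with ultrasound only, 511 with Sonazoid only and 499 in control (1.3-fold). Both had the same order of arrays, with Sonazoid only next to control. In the combination against control, 1 of the 9 passed 1.5-fold, where 7.03% of all measured probe sets were higher and 5.5% lower. This was a shared probe set of 6 H2A symbols, with 182 in the combination, 137 with ultrasound only, 133 with Sonazoid only and 109 in control (1.67-fold).

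Of the H2A genes on their own probe sets, H2AC6 (shared) had 209 in the combination, 212 with ultrasound only, 201 with Sonazoid only and 159 in control, with all treated arrays close together. H2AC14 (shared) had 180 in the combination, 247 with ultrasound only, 179 with Sonazoid only and 203 in control. H2AC17 (specific) had 131 in the combination, 118 with ultrasound only, 96.3 with Sonazoid only and 115 in control. These last H2A genes were within 1.5-fold of control on each array. H2AC25 (specific), from the smaller gene cluster on chromosome 1, had 131 in the combination, 90.2 with ultrasound only, 119 with Sonazoid only and 132 in control. Ultrasound only was thus its lowest array, at a log2 difference of -0.55 from control. H2AC16 (specific and dim) had 57.7 in the combination, 67.8 with ultrasound only, 27.3 with Sonazoid only and 51.4 in control. It was 1.88-fold lower than control with Sonazoid only and 2.11-fold higher in the combination than with Sonazoid only. The other measured H2A probe set, also specific and dim, was below the floor in the combination (15.8) and between 28.4 and 30.7 on the other arrays. Both arrays with ultrasound were above both without for 6 of the 9 H2A probe sets, against 19.9% of all. These were 4 of the 5 shared ones (21.3% of all measured shared probe sets) and 2 of the 4 specific ones (18.8% of all specific ones). The shared ones can bind related H2A mRNAs and are not independent. A pair of probe sets annotated to H2A and H3 genes together had 48.5 and 83.0 in the combination and 48.0 and 65.2 in control.

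H2B, the partner of H2A, was below control with ultrasound only on its shared probe sets. The 4 specific ones split there, with 2 above control, 2 below it and a median of 0.02 (log2). Of the 11 measured H2B probe sets 9 were lower than control with ultrasound only (median -0.14, log2), while 8 were higher than control in the combination (median 0.14) and the median with Sonazoid only was 0.01. Of all 26486 measured probe sets, 13137 were below control with ultrasound only and 12921 above it in the combination. The combination exceeded ultrasound only for 10 of the 11 (13246 of 26486 over all), with a median of 0.38, and 5 were at least 1.5-fold higher there (6.57% of all). H2BC12, on a specific probe set, had 973 in the combination, 817 with ultrasound only, 821 with Sonazoid only and 719 in control, 1.35-fold in the combination. H2BC12L, a relative of H2BC12 on chromosome 21 seen on a shared probe set, had 814 in the combination, 498 with ultrasound only, 800 with Sonazoid only and 640 in control. Its arrays with Sonazoid were the higher ones and ultrasound only was the lowest.

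The order with ultrasound only lowest recurred on other shared H2B probe sets. H2BC6 had 458 in the combination, 282 with ultrasound only, 414 with Sonazoid only and 416 in control, so ultrasound only was 1.47-fold lower than control and the combination 1.62-fold over ultrasound only. H2BC9 had 182 in the combination, 118 with ultrasound only, 151 with Sonazoid only and 165 in control (1.54-fold in the combination over ultrasound only). H2BC5 had 159 in the combination, 127 with ultrasound only, 161 with Sonazoid only and 161 in control on 1 probe set. Its other probe set gave 420 in the combination, 324 with ultrasound only, 306 with Sonazoid only and 340 in control, where Sonazoid only was lowest. All 7 shared H2B probe sets were below control with ultrasound only, from -0.56 to -0.07 (log2), as were 5355 of all 11265 measured shared probe sets. They can bind related H2B mRNAs and are not 7 independent measurements.

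A shared probe set of 5 H2B symbols had 321 in the combination, 271 with ultrasound only, 393 with Sonazoid only and 293 in control. A dim one of the same 5 symbols had 60.9 in the combination, 90.6 with ultrasound only, 36.7 with Sonazoid only and 97.9 in control, 1.61-fold lower in the combination. These went opposite ways with Sonazoid only, at log2 differences of 0.42 and -1.42 from control. Among dim specific probe sets, H2BC3 had 55.2 in the combination, 19.5 (below the floor) with ultrasound only, 26.6 with Sonazoid only and 26.3 in control, 2.1-fold in the combination over control. H2BC17 had 41.0 in the combination, 35.6 with ultrasound only, 28.2 with Sonazoid only and 25.4 in control (1.62-fold). H2BC14 had 42.1 in the combination, 26.0 with ultrasound only, 68.6 with Sonazoid only and 55.9 in control, 2.15-fold lower with ultrasound only. The combination was the highest array for H2BC3 and H2BC17 and ultrasound only the lowest for H2BC3 and H2BC14.

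H1, the linker histone, had the lowest medians, -0.46 (log2) in the combination, -0.60 with ultrasound only and -0.20 with Sonazoid only, over 4 measured probe sets. Of these the shared one, of H1-6, passed the filter only through control, its highest array, so its being below control follows in part from the filter. Over the 3 specific H1 probe sets the medians were -0.43, -0.42 and -0.08 in the same order of groups. H1-2, a somatic variant on a bright specific probe set, went the other way, with 284 in the combination, 342 with ultrasound only, 255 with Sonazoid only and 244 in control, 1.4-fold with ultrasound only. H1-4, another somatic variant, had 52.9 in the combination, 39.0 with ultrasound only, 69.7 with Sonazoid only and 73.6 in control, 1.89-fold lower with ultrasound only. H1-6, the testis variant, on a shared probe set had 28.5 in the combination, 3.2 (below the floor) with ultrasound only, 33.1 with Sonazoid only and 41.1 in control, at least 1.73-fold lower with ultrasound only. Its specific probe set was below the floor on all 4 arrays, between 1.89 and 9.17. The other H1 probe set, specific and dim, had between 45.6 and 46.9 in the 3 treated groups and 62.7 in control. The 3 dim H1 probe sets were thus below control with ultrasound only and in the combination, and the bright one above.

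Ultrasound differed in 2 comparisons that share no array, 1 between the arrays with Sonazoid (combination against Sonazoid only) and 1 between those without it (ultrasound only against control). Their medians over the 39 probe sets were 0.33 and 0.12 (log2). In the first, 11 of 39 were at least 1.5-fold higher and 1 lower (7.0% and 5.22% of all), and 6 were at least 2-fold higher and none lower (1.79% and 0.951%). Of the 39, 21 were above 0 in both comparisons (28.2% of all), 7 below 0 in both and 11 opposite. Over all 26486 measured probe sets, 7612 were below 0 in both and 10893 opposite. At least 1.5-fold higher in both were 2 of the 39, the shared probe set of H4C8 and the specific one of H4C9 (1.79% of all). Both arrays with ultrasound exceeded both without for 17 of 39 (19.9% of all) and lay below both for 5 (20.7% of all). By class the 17 included 6 of 9 H2A, 5 of 8 H4 and 4 of 5 H3 probe sets, but 1 of 11 H2B and 1 of 4 H1. Across the 39 probe sets the 2 ultrasound comparisons had a Pearson r of 0.5 and a Spearman rho of 0.57, given as a description of points that share arrays, family sequences and signal range. Over all 26486 measured probe sets r was 0.2.

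**Figure D3:**
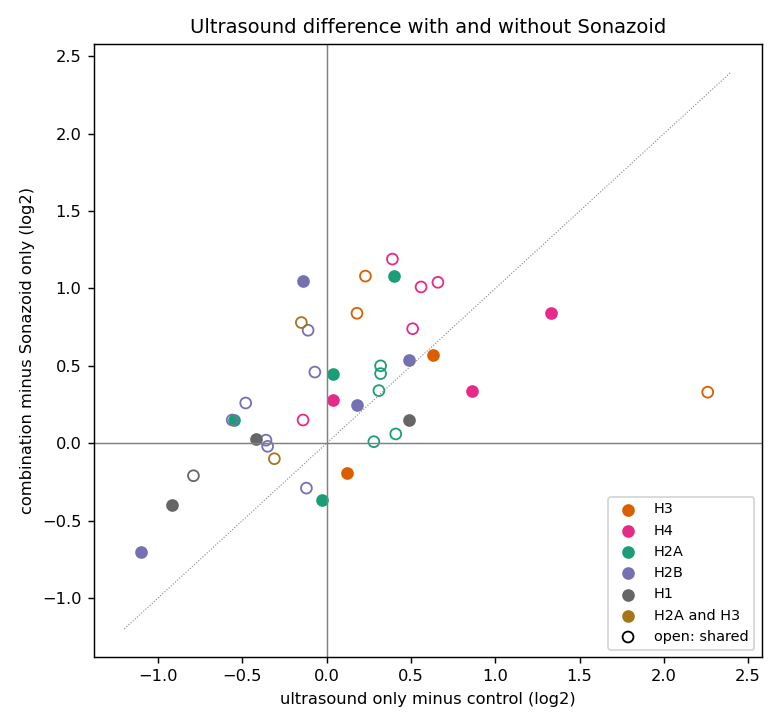
Log2 differences with ultrasound, in the presence of Sonazoid (combination minus Sonazoid only, vertical) and in its absence (ultrasound only minus control, horizontal), for the 39 measured histone probe sets, coloured by class, with open circles for shared ones and a dotted line of equality. H4 points lie at or right of -0.14 and above 0, and shared H2B points lie left of 0.

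Sonazoid likewise differed in the combination against ultrasound only and in Sonazoid only against control, which share no array. Their medians were 0.25 and 0.03 (log2), 15 of 39 probe sets were above 0 in both (26.8% of all), 5 below 0 in both and 19 opposite. Over all 26486 measured probe sets, 7056 were below 0 in both and 11752 opposite. Pearson r was 0.14 (Spearman rho 0.11) on the 39 and 0.05 on all. In the combination against ultrasound only 7 were at least 1.5-fold higher and 1 lower (6.57% and 6.31% of all), and 1, H2BC3, at least 2-fold higher and none lower (1.37% and 1.46%). Both arrays with Sonazoid were above both without for 7 (16.2% of all) and below both for 4 (17.1%). The departure from additivity, the first ultrasound comparison minus the other, had a median of 0.32 and was above 0 for 29 of 39, against a median of 0.00 and 13152 of 26486 above 0 over all measured probe sets. Its median was 0.53 on shared H2B probe sets and 0.23 on specific ones, and on H4 it was 0.38 on shared and -0.49 on specific ones.

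Shared and specific probe sets differed in part of this. The 23 shared probe sets had medians of 0.35 (log2) in the combination, 0.18 with ultrasound only and 0.03 with Sonazoid only, each against control, with 7 at least 1.5-fold higher in the combination (6.02% of all measured shared probe sets). The 16 specific ones had 0.18, 0.08 and 0.07 in the same order of groups, with 4 at least 1.5-fold higher in the combination (7.78% of all measured specific ones). For the combination against ultrasound only the median was 0.32 on shared probe sets and 0.00 on specific ones, and on the specific ones 0.22 with the values as deposited and -0.02 after quantile normalisation. For the combination against Sonazoid only the medians were 0.34 and 0.26. All measured shared probe sets of the array had a median of -0.01 in the combination against control, and all specific ones 0.00.

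Brighter probe sets gave a similar picture in the combination. The 19 histone probe sets with a mean signal of at least 100 had a median of 0.35 (log2) in the combination against control, and 4 were at least 1.5-fold higher and none lower, against 2.77% and 1.75% of the array's 16012 probe sets of such signal. Those 4 were H4C11, the probe set of 14 H4 symbols next to it in signal, H3C8 and the probe set of 6 H2A symbols, all of them shared. H3C8 alone was 1.5-fold higher with ultrasound only and with Sonazoid only against control, with none lower (2.99% and 2.19% of such probe sets with ultrasound only, 0.868% and 1.06% with Sonazoid only). In the combination against ultrasound only, H2BC12L, H4C11, H2BC6 and H2BC9 were 1.5-fold higher and H3C8 lower (1.62% and 2.3%), and against Sonazoid only H4C11 and the probe set of 14 H4 symbols were higher and none lower (2.45% and 1.56%). The 35 histone probe sets above the floor on every array had a median of 0.31.

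For genes around the histone pathway, list medians in the combination against control lay between -0.05 and 0.13 (log2). Replication-independent histones, made throughout the cell cycle from polyadenylated mRNAs in most cases, had a median of -0.05 (log2) in the combination against control over 8 measured genes, which was 0.12 with the values as deposited. H2AZ1, the H2A.Z variant, had 12080 in the combination, 12562 with ultrasound only, 11157 with Sonazoid only and 12043 in control. H2AZ2, H2AX and H2AJ had 4876, 2019 and 288 in the combination and 4941, 2471 and 245 in control. MACROH2A1, H3-3A and H1-10 had 6222, 72.0 and 1079 in the combination and 6807, 69.9 and 1147 in control. CENPA, the centromeric H3, had 1038 in the combination, 1360 with ultrasound only, 1268 with Sonazoid only and 1405 in control. None of the 8 passed 1.5-fold in the combination against control, where 7.03% of all measured probe sets were higher and 5.5% lower. Among all probe sets with a mean signal of at least 100 these shares were 2.77% and 1.75%. With shares that low, a short list can have none past 1.5-fold.

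Of 20 measured S phase and replication genes none was 1.5-fold different from control in any treated group. Few of all probe sets with a mean signal of at least 100 were, with 2.77% higher and 1.75% lower in the combination. The shares were 2.99% and 2.19% with ultrasound only, and 0.868% and 1.06% with Sonazoid only. The list median in the combination was 0.00 (0.17 as deposited, -0.01 after quantile normalisation). The members farthest from 0 in the combination were GINS2, a replication helicase subunit (0.26), DNMT1, which copies DNA methylation (-0.25), and CDC6 and MCM5, which act in origin licensing (-0.18 each). Among 22 genes of histone mRNA transcription and processing (median -0.04, as deposited 0.13), SLBP had 6057 in the combination, 5857 with ultrasound only, 5677 with Sonazoid only and 5831 in control. The members farthest from 0 were CPSF1 (21.2, below the floor, in the combination and 51.7 in control, at least 2.17-fold lower), CDK9, the P-TEFb kinase (-0.53), CCNE2, a cyclin E (0.48), and, level at 0.21, NPAT, the cyclin E-CDK2 substrate that activates histone genes, and its partner CASP8AP2. CPSF1 was the 1 of the 22 past 1.5-fold in the combination against control, where 5.5% of all measured probe sets were lower and 7.03% higher.

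Histone mRNA decay genes had a median of 0.13 over 10 (0.31 as deposited) and chaperones -0.03 over 16 (0.15 as deposited). None of either list passed 1.5-fold in the combination against control (7.03% higher and 5.5% lower of all, 2.77% and 1.75% at a mean signal of at least 100). The decay genes farthest from 0 were LSM1, of the ring that binds decaying mRNA (0.33), the exonuclease DIS3L2 (0.27), the helicase UPF1 (-0.24) and DCP2, the decapping enzyme (0.18). The chaperone genes farthest from 0 were TONSL (-0.54), DAXX, an H3.3 chaperone (-0.23), HIRA, another (-0.21), and SET (0.20). ACTB and GAPDH had log2 differences of -0.07 and -0.11, and the median of this pair was 0.09 with the values as deposited.

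**Figure D4:**
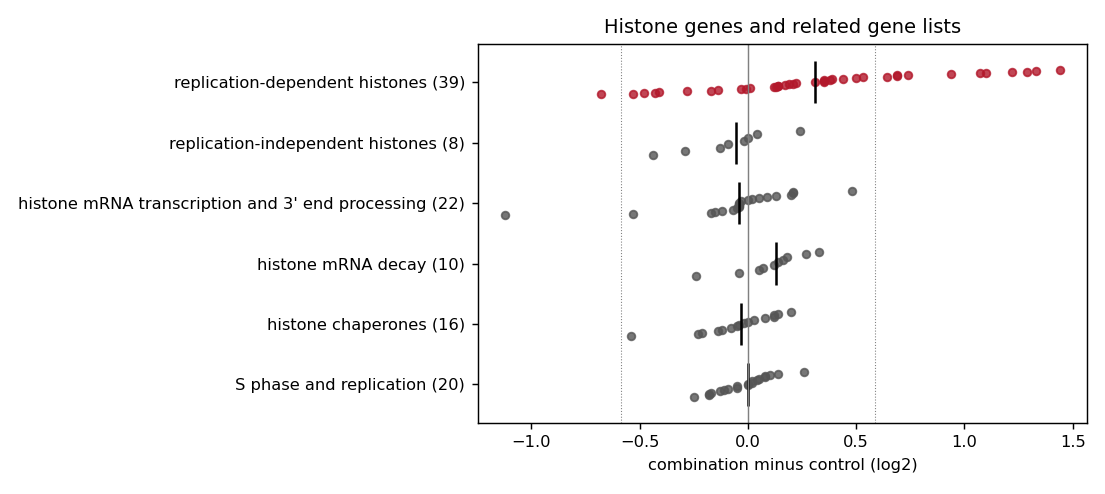
Log2 difference of the combination from control for the 39 measured histone probe sets (red) and for the measured genes of related lists (grey, 1 probe set a gene, number in brackets), with a bar at each median and dotted lines at 1.5-fold. The histone median over probe sets is 0.31 and those of the other lists lie between -0.05 and 0.13. With 1 value per gene, as in the lists, the histone median over 27 genes is 0.223 above that of all probe sets.

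An RNA without a poly(A) tail was higher on both arrays with ultrasound. RNA45SN5, the 45S ribosomal RNA precursor, was the 1 of 3 such RNAs with a probe set that was measured, and had 3181 in the combination, 2749 with ultrasound only, 208 with Sonazoid only and 296 in control. Its log2 difference of ultrasound only from control was 3.22, against a histone median of 0.12. RPPH1 had 24.4 in the combination, 26.8 with ultrasound only, 3.03 with Sonazoid only and 3.13 in control, just above the floor on both arrays with ultrasound and far below it on the others. SCARNA2 was below the floor on all 4, with 22.6 in the combination, 6.61 with ultrasound only, 3.24 with Sonazoid only and 3.45 in control. The part of whatever RNA45SN5 reports in the histone differences was not tested.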

How the data were processed

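Total RNA of 4 samples was hybridised to Affymetrix Human Genome U133 Plus 2.0 arrays, 1 per group, after amplification from the 3' end, per the labels' protocols. The authors deposited 1 linear intensity for each probe set on an array (0.0486 to 21728), made by a summarisation not given in the sources here. The trimmed means (2% removed at each end) differed 1.161-fold, above the 1.1-fold at which scaling was applied, so arrays were multiplied by 0.923 (combination), 1.07 (ultrasound only), 0.977 (Sonazoid only) and 1.04 (control). Values under 23.8 were set to that floor before log2. Differences with 1 side below the floor are written "at least".

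Of 54675 probe sets, 41097 had 1 symbol, 1801 several and 11777 none; symbols were updated through Entrez IDs with RefSeq (GRCh38.p14) for 41043, which gave 19775 genes. The 62 control probe sets are part of the 54675 and of the scaling and floor. They were left out of the counts and shares over all measured probe sets. H1-10 and antisense genes were not taken as members. Probe sets with several symbols, all of them members, were kept as shared ones and name no gene; other lists used each gene's brightest probe set with 1 symbol.

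Named members had a mean signal of at least 100 or differed by 1.5-fold from control in the combination or ultrasound only; up to 4 genes of each other list, those farthest from control in the combination, were named (5 of the transcription list, where 2 tied), and all measured replication-independent histones. H4C5, H2AC16, SLBP and the genes of the unmeasured set were named outside this rule, after their values were seen. The members, lists and rules were chosen with earlier results of these data known. Python 3.11.15, pandas 2.3.3, numpy 2.4.6 and scipy 1.17.1 were used, and the calculation was tested on simulated data. The number of arrays, 1 a group, limits precision, and no p-value or error was computed. Alternatives to the scaling, floor, filter and unit are given at the end.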

Additional observations from a re-analysis of the deposited data

How the results depend on the processing

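Each of 12 results was recomputed under 8 alternatives, of which 68 values stayed close (a median within 0.1 log2, a count within 1.5 times) and 28 moved. Medians below are minus that of all probe sets. The combination against control was 0.31 and between 0.179 (specific probe sets) and 0.363 (75th percentile as floor). Ultrasound only against control was 0.124, and between 0.034 (probe sets above the floor on at least 1 array compared, 44 in all) and 0.183 (75th percentile). The combination against ultrasound only was 0.253, and 0.0 on specific probe sets. The combination against Sonazoid only was 0.333, and 0.165 with the 75th percentile as floor.

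In counts at 1.5-fold the 75th percentile served as both floor and filter. In the combination against control, 11 higher became 2 (of 15 measured) with the 75th percentile as floor, 4 on specific and 7 on shared probe sets, and the 1 lower became 0 with the values as deposited, the stricter floor, 16 added before log2, 1 value per gene or specific probe sets. With ultrasound only, 5 higher became 0 with the stricter floor, 3 with 16 added or specific probe sets and 2 on shared ones, and 3 lower became 5 as deposited, 0 with the stricter floor and 1 on shared ones. With Sonazoid only, 2 higher became 0 with the stricter floor or specific probe sets and 1 with 16 added or 1 value per gene, and 3 lower became 0 with the stricter floor and 1 with 1 value per gene or specific probe sets. The 17 with both ultrasound arrays above both others became 6 with the stricter floor, 7 on specific and 10 on shared probe sets. Fewer probe sets are counted with the stricter floor (15), on specific (16) and on shared ones (23); otherwise the cause was not tested. Of 39 probe sets, 4 changed sign in the combination against control under another scaling, 1 with ultrasound only and 2 with Sonazoid only, and 5 in the combination against ultrasound only and 2 against Sonazoid only. Values as deposited moved the median of all probe sets by up to 0.215. No paired analysis was possible because each group has 1 array, and for the same reason no replicate could be left out.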
